A study of Mus musculus with 6 samples.

Results

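The Ms4a genes encode small proteins that cross the cell membrane several times, and most of them lie side by side on one chromosome. The best-known members are Ms4a1, which encodes the B cell antigen CD20, and Ms4a2, which encodes a chain of the high-affinity IgE receptor of mast cells. Members carried by macrophages sit in membrane microdomains beside other receptors, and human MS4A4A is known to associate with the β-glucan receptor Dectin-1. RNA-seq values of 8 Ms4a genes that are typical of mouse myeloid cells were described here, namely Ms4a4a, Ms4a4b, Ms4a4c, Ms4a4d, Ms4a6b, Ms4a6c, Ms4a6d and Ms4a7. They were chosen by name from a table of 52550 genes, and all 8 had enough counts to be among the 16402 genes tested.

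The study asked how macrophage scavenger receptor 1 (MSR1) shapes the transcriptome of macrophages kept beside stromal cells. Bone marrow cells of C57BL/6 mice, either MSR1 KO or MSR1 WT, were grown for 7 days in 25 ng/ml M-CSF, the growth factor that drives marrow cells to become macrophages (BMDMs). The macrophages of both genotypes were then kept with bone marrow mesenchymal stem cells (BMSCs) for 48 h in a transwell, a dish in which a porous membrane separates the populations. There were 3 libraries per genotype, which the paper calls biological replicates, and the labels give neither the animals' age nor whether libraries share an animal. The knockout is not restricted to macrophages, and all 6 libraries, WT included, come from co-cultured cells.

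Total counts per library ranged from 36143518 to 47417448. The targeted gene Msr1 matched the labels, with 43.0 to 59.0 CPM (read counts scaled to the size of the library) in MSR1 KO and 183 to 223 in MSR1 WT. The macrophage genes Csf1r (4333 to 4565 CPM), Adgre1 (2172 to 2458 CPM), Cd68 (1121 to 1370 CPM) and Lyz2 (12643 to 15865 CPM) were high in all libraries. MSR1 WT 3 stood apart from the other WT libraries in a list of 25 interferon-response genes, whose summed level was 3036 CPM there against 2056 CPM in MSR1 WT 1 and 1806 CPM in MSR1 WT 2. In MSR1 KO the same sum was 5312, 5790.2 and 4752 CPM in libraries 1, 2 and 3, so that MSR1 WT 3 lay between its own group and the KO group.

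The 8 genes lie on chromosome 19 (GRCm38), within the span from 10962293 to 11640851 that holds every Ms4a gene of the table. From one end to the other, Ms4a7 is at chr19:11321039-11336146 on the minus strand and Ms4a4a at chr19:11375523-11392790 on the plus strand. Ms4a4c follows at chr19:11404770-11427246, Ms4a4b at chr19:11443553-11463549 and Ms4a6c at chr19:11469366-11482192, all on the plus strand. Ms4a6b is at chr19:11516512-11531256 and Ms4a4d at chr19:11536801-11558467 on the plus strand, and Ms4a6d is at chr19:11586604-11604849 on the minus strand. Apart from Ms4a4a, the Ms4a4 and Ms4a6 names follow sequence. Coding sequences of Ms4a4b and Ms4a4c were identical at 91.7% of 678 aligned bases, and Ms4a4d matched them at 86.1% and 88.3%. Ms4a6b, Ms4a6c and Ms4a6d matched each other at 81.3% to 86.4%. Ms4a4a stood off from its namesakes, at 73.4% to 74.2% identity, and matched Ms4a6d about as closely, at 74.1%.

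Close copies were also compared before their RefSeq start sites. Stretches from the 250 bases before these sites (GRCm38.p6) are shown for both pairs of close copies whose levels were higher in MSR1 KO. They let a reader compare sequence within each pair. Where an annotated exon reached into those 250 bases, the stretch stops before it. The stretches of Ms4a4c and Ms4a6b lie inside the annotated genes, past the gene starts at 11404770 and 11516512. For Ms4a4c (chr19:11407411-11407660, plus strand) and Ms4a4b (chr19:11443308-11443552, plus strand), capitals mark the longest run of letters shared by the pair, 20 bases.
Ms4a4c: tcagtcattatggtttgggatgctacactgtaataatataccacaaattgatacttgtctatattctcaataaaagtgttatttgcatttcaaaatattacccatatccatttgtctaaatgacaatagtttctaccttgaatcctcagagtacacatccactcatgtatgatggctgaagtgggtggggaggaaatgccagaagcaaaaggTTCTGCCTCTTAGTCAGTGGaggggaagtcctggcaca
Ms4a4b: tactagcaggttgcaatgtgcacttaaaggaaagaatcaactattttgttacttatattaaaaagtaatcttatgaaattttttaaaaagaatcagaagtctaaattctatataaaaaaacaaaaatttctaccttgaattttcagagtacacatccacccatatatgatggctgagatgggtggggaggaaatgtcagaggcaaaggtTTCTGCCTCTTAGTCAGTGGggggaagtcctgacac
For Ms4a6c (chr19:11469118-11469365, plus strand) and Ms4a6b (chr19:11518309-11518452, plus strand), capitals mark a match of GAAANNGAA, the core of the interferon-stimulated response element, to which interferon-activated transcription factors bind.
Ms4a6c: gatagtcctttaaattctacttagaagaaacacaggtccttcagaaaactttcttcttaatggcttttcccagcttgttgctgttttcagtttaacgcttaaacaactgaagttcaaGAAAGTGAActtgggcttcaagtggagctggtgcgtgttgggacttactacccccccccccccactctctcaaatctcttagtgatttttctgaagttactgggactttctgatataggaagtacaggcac
Ms4a6b: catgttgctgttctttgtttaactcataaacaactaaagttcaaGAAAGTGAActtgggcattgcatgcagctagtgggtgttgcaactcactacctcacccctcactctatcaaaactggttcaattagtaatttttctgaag
In the full 250 bases before the start site, the Ms4a4 pair was identical at 81.8% of 231 aligned bases and the Ms4a6 pair at 88.4% of 173. The match in Ms4a6c began 133 bases and that in Ms4a6b 206 bases before the start site, with the same letters, GAAAGTGAA, in both. The stretch shown for Ms4a6b has 144 bases and ends 106 bases short of its start site. Ms4a7 has 2 start sites in RefSeq, and each window held 1 match, given here with its flanks on the minus strand (chr19:11336194-11336232 and chr19:11334820-11334858). The first is the motif read on the other strand.
Ms4a7 first start: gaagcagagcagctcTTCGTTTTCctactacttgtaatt
Ms4a7 second start: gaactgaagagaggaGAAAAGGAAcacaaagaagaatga
No match of GAAANNGAA on either strand was found in the windows of Ms4a4a, Ms4a4b, Ms4a4c and Ms4a4d, which says only that these letters are not there. Among all 32851 RefSeq windows of 300 bases (250 before and 50 after a start site), 8.56% held a match of this motif. None of the windows of members held TTCNNNGAA, bound by STAT dimers (8.3% of all windows), or GAGGAAGT, a core bound by PU.1 (3.2% of all windows). A window of Ms4a6d was not used here.

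Of the 8 genes, Ms4a4c, Ms4a6b and Ms4a6c rose in MSR1 KO macrophages at an adjusted p under 0.05 (edgeR quasi-likelihood test, Benjamini-Hochberg adjustment over all tested genes). Of all tested genes 2.25% were higher by this test and 2.66% were lower. No member passed in the lower direction, where 1 member had an unadjusted p under 0.05 and DESeq2 called 0. The median log2 fold change of the 8 members was 0.34, beside -0.0023 over all tested genes. By the study's own definition of a differentially expressed gene (DEG), a fold change above 1.5 with an unadjusted p under 0.05, Ms4a4c and Ms4a4b were higher and Ms4a4d was lower, against 3.59% and 5.05% of all genes. Every KO library lay above every WT library for 4 members and below for 1, which was so for 12.1% and 13.4% of all genes. In such bulk samples a change in RNA per cell cannot be told apart from a change in the share of cells that carry it.

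**Figure D1:**
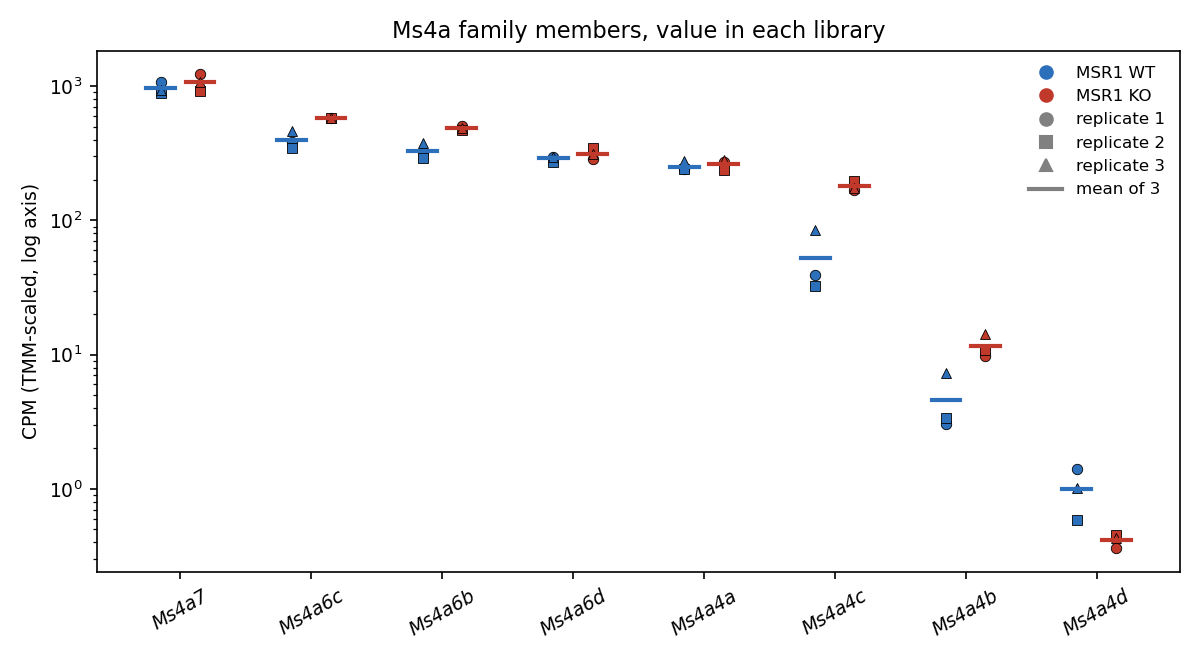
Level of each Ms4a gene in the 6 libraries, in CPM on a log axis, with MSR1 WT in blue and MSR1 KO in red, a marker shape for each replicate and a bar for the mean of 3. Ms4a4c, Ms4a4b, Ms4a6b and Ms4a6c show KO above WT without overlap, Ms4a4d the opposite order, and Ms4a7, Ms4a6d and Ms4a4a overlap.

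Ms4a4c, a gene of myeloid cells and lymphocytes, had the largest rise of the 8. Its level was 169, 198 and 175 CPM in MSR1 KO and 38.9, 32.4 and 85.1 CPM in MSR1 WT. The lowest KO library was still well above the highest WT library, MSR1 WT 3, which was itself more than both other WT libraries together. The means were 181 ± 15.3 and 52.1 ± 28.7 CPM (SD, n = 3 each), a 3.47-fold difference with a 95% interval of 2.07 to 5.81 (log2 fold change 1.79, SE 0.324, adjusted p = 0.0257 by edgeR). Without MSR1 WT 3 the log2 fold change was 2.34 with an adjusted p of 0.000613. Without any one of the other 5 libraries it was 1.54 to 1.85, and the adjusted p lay between 0.0627 and 0.11.

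Ms4a4b, known from T cells, where its product dampens activation and associates with the receptor GITR, was far less abundant. It had 349, 430 and 662 counts in MSR1 KO (9.72, 10.8 and 14.2 CPM) and 125, 159 and 304 counts in MSR1 WT (3.03, 3.35 and 7.36 CPM). Again MSR1 WT 3 was the highest WT library and no WT library reached the KO range. The log2 fold change was 1.34 (SE 0.337), a 2.53-fold difference with a 95% interval of 1.48 to 4.34. The edgeR adjusted p was 0.0641, while DESeq2 gave 0.000717, and without MSR1 WT 3 edgeR gave 0.00603 and a log2 fold change of 1.86.

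Some genes of T and NK cells were higher in MSR1 KO, as Ms4a4b was, and others were not. Of a list of 16 T and NK cell genes, 12 were tested, with a median log2 fold change of 1.12. Leaving out 1 library gave 0 to 4 higher genes and 0 lower by edgeR. On all 6 libraries edgeR gave 2 higher and none lower (5 and 1 at an unadjusted p under 0.05, 4 and 0 by DESeq2). The 2 were Klrb1c, an NK cell receptor at 8.88, 7.49 and 8.82 CPM in KO and 2.55, 2.42 and 4.65 CPM in WT, and Trbc2, a T cell receptor constant segment at 1.17 to 1.94 CPM in KO and 0.340 to 0.548 CPM in WT. Nkg7, a granule protein gene picked after its values were seen, was at 4.75 to 7.44 CPM in KO and at 1.70, 0.822 and 4.89 CPM in WT, the last in MSR1 WT 3. The summed level of the list was 215 to 287 CPM in KO and 214 to 303 CPM in WT, most of it from Cd4 and Il7r. Cd4 overlapped between the genotypes (log2 fold change -0.02). Il7r went the other way, at 91.9 to 110 CPM in KO and 113 to 143 CPM in WT. Only without Cd4 and Il7r did the sum differ. For the other 14 genes it was 31.5, 29.0 and 40.6 CPM in KO and 11.2, 8.60 and 25.3 CPM in WT. This sum was highest in MSR1 KO 3 and, within WT, in MSR1 WT 3, as Ms4a4b was. The defining T cell genes Cd3e and Cd3d were near 0. Cd3e was at 0 counts in 2 KO libraries and 1 WT library and at no more than 9 in any, and Cd3d was at 0 counts in 1 KO library and 2 WT libraries and at no more than 19 in any. The part of T or NK cells in the Ms4a4b values was not tested.

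Ms4a6b and Ms4a6c, close copies with unknown or little-known roles in macrophages, were among the members with the highest CPM and rose by similar amounts. Ms4a6b was at 509, 471 and 486 CPM in MSR1 KO and at 322, 290.0 and 377 CPM in MSR1 WT. Ms4a6c was at 579, 579 and 583 CPM in KO and at 388, 346 and 462 CPM in WT. For both genes the KO libraries lay close together, the WT libraries were spread more widely, and MSR1 WT 3 was the WT library nearest to KO. Ms4a6b averaged 489 ± 19.1 CPM in KO and 330 ± 44.3 CPM in WT (SD, n = 3 each), with a log2 fold change of 0.57 (SE 0.0988, adjusted p = 0.0238 by edgeR). Its 1.48-fold difference (95% interval 1.27 to 1.73) lay just under the 1.5-fold line of the study's definition. Ms4a6c averaged 580.0 ± 2.55 CPM in KO and 399 ± 58.4 CPM in WT, with a log2 fold change of 0.54 (SE 0.102, adjusted p = 0.027), or 1.46-fold (95% interval 1.24 to 1.71). Without MSR1 WT 3 the log2 fold changes were 0.68 and 0.66 with adjusted p of 0.00677 and 0.00668, and both genes then met the study's definition too. Without MSR1 WT 1 the adjusted p by edgeR rose to 0.107 for Ms4a6b and 0.118 for Ms4a6c. Without MSR1 KO 1, KO 3 or WT 2 it was 0.0534 to 0.0794 for Ms4a6b, and without KO 1, KO 2, KO 3 or WT 2 it was 0.0642 to 0.0827 for Ms4a6c.

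Counts of Ms4a6c and of BE692007, a transcript on the opposite strand, may share reads. In the GENCODE M21 annotation, exons of BE692007 cover 53.1% of the exon bases of Ms4a6c, and 47.7% of the 75-base stretches of Ms4a6c transcripts also occur in another gene's transcripts. BE692007 itself rose, from 210.4 ± 22.8 CPM in WT to 302 ± 22.7 CPM in KO (log2 fold change 0.52, adjusted p = 0.0267 by edgeR). The ratio of BE692007 to Ms4a6c counts was 0.488 to 0.561 in KO and 0.511 to 0.553 in WT, overlapping ranges (two-sided exact permutation p = 0.8). The strand setting of the counting is not given in the sources used here, and reads from the overlap cannot be assigned to one of the genes without it. For the other members, at most 3.78% of the stretches were shared, in Ms4a4c with Ms4a4b. This measure counts exact matches of 75 bases only. Sharing of reads with mismatches between close copies was not tested.

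Ms4a4d, the scarcest of the 8, was the member with lower values in MSR1 KO. It had 13, 18 and 20 counts in KO against 58, 28 and 42 in WT. All 3 KO libraries were below the lowest WT library, although the WT libraries differed among themselves by more than the gap between the groups. The log2 fold change was -1.26 (SE 0.453), with an unadjusted edgeR p of 0.023 and an adjusted p of 0.174. At this depth the 95% interval of the KO to WT fold was wide, from 0.202 to 0.856.

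Ms4a7, Ms4a4a and Ms4a6d, all abundant in these macrophages, did not pass the test. Ms4a7, a marker of border-associated and monocyte-derived macrophages of the mouse brain, was at 1226, 929 and 1075 CPM in KO and at 1084, 886 and 946 CPM in WT. The libraries of the genotypes interleaved, and the log2 fold change was 0.15 (adjusted p = 0.554 by edgeR; fold 95% interval 0.924 to 1.33). Ms4a4a, the mouse counterpart of the Dectin-1 partner, was at 272, 239 and 285 CPM in KO and at 240.4, 240.5 and 275 CPM in WT. The groups overlapped over nearly the same range, with a log2 fold change of 0.07 (adjusted p = 0.74; fold 95% interval 0.910 to 1.21). Ms4a6d was at 286, 345 and 314 CPM in KO and at 297, 274 and 299 CPM in WT. MSR1 KO 1 fell among the WT libraries, and the log2 fold change was 0.12 (adjusted p = 0.505; fold 95% interval 0.952 to 1.24). These intervals do not reach the fold changes of Ms4a4c or the 1.5-fold line, so depth did not limit the reading of these 3 genes.

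**Figure D2:**
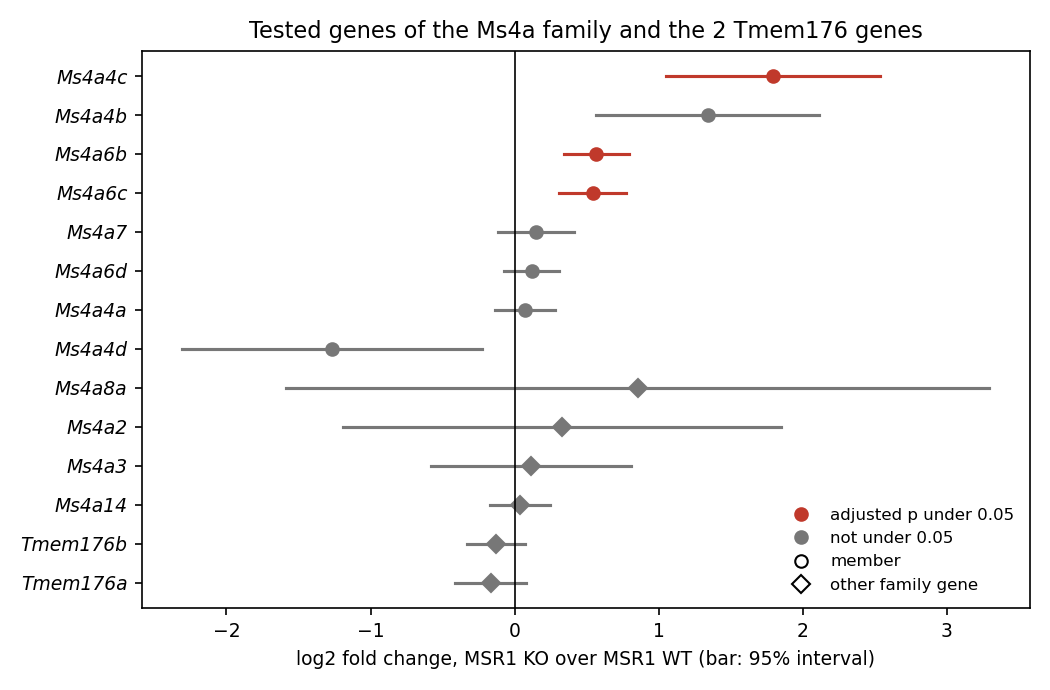
Log2 fold change of MSR1 KO over MSR1 WT for each tested Ms4a gene and for Tmem176a and Tmem176b, with 95% intervals; members are circles, other family genes diamonds, and red marks an adjusted p under 0.05. Ms4a4c is highest at 1.79, the 3 red points are Ms4a4c, Ms4a6b and Ms4a6c, and the intervals of Ms4a7, Ms4a6d and Ms4a4a are narrow and cross 0.

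Ratios within a library do not depend on scaling between libraries. The count of Ms4a4c per count of Ms4a4a was 0.621, 0.829 and 0.616 in KO and 0.162, 0.135 and 0.309 in WT. That of Ms4a6b per Ms4a6d was 1.78, 1.37 and 1.55 in KO and 1.08, 1.06 and 1.26 in WT, and that of Ms4a6c per Ms4a6d was 2.02, 1.68 and 1.86 in KO and 1.31, 1.26 and 1.54 in WT. In each of these ratios every KO library exceeded every WT library. For each the two-sided exact permutation test gave p = 0.1, the smallest that 3 against 3 libraries allow, so the design cannot reach 0.05. Ms4a4c also rose more than Ms4a6c within libraries (0.292 to 0.342 per count in KO, 0.0936 to 0.184 in WT, exact permutation p = 0.1). The ratio of Ms4a6b to Ms4a6c stayed between 0.815 and 0.880 in all 6 libraries (exact permutation p = 0.7). That of Ms4a7 to Ms4a4a was 3.43 to 4.51 with overlapping groups (exact permutation p = 0.5), and that of Ms4a4c to Ms4a4b was 12.3 to 18.3 in KO and 9.68 to 12.8 in WT (exact permutation p = 0.2). These tests belong to a family of 9 ratios, and none could pass a correction.

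Per kilobase of exon, the members fell into an abundant and a scarce class. The level per length (CPM per kilobase of exon union) was highest for Ms4a4a, at 317 ± 28.4 in KO and 302 ± 24.2 in WT. In MSR1 WT, Ms4a7 (218 ± 22.9), Ms4a6c (194 ± 28.5) and Ms4a6d (167 ± 7.80) came next, and each overlapped its neighbour in this order. Ms4a6b (73.5 ± 9.87) and Ms4a4c (29.8 ± 16.4) followed without overlap. In MSR1 KO the order changed. Ms4a6c (283 ± 1.24) stood above Ms4a7 (242 ± 33.4) and Ms4a6d (182 ± 16.8), while Ms4a4c (103 ± 8.73) came level with Ms4a6b (109 ± 4.26), their libraries overlapping. Ms4a4b and Ms4a4d were scarce in both genotypes, at 1.32 and 0.274 in KO and at 0.522 and 0.664 in WT, where they overlapped. With the longest annotated transcript as the length, the 6 abundant members kept their order in both genotypes, while in WT Ms4a4b (0.964) then stood above Ms4a4d (0.664).

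As a share of the summed CPM of the 8 members, Ms4a4c made up 5.53% to 7.14% in KO and 1.56% to 3.47% in WT. Ms4a7 took the largest share throughout, 33.5% to 40.2% in KO and 38.6% to 45.7% in WT. The sum itself was 3051, 2772 and 2933 CPM in KO and 2374, 2073 and 2452 CPM in WT, without overlap.

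The rest of the family was not called. Of 17 further names, 13 were in the table, 5 of them at 0 in all libraries (Ms4a5, Ms4a10, Ms4a13, Ms4a15 and Ms4a18), and for these a count of 0 allows up to 0.0632 to 0.0835 CPM, counting error only. Ms4a1, the B cell gene, and Ms4a12 had 4 counts each, all in MSR1 WT 3. Of the 6 that were tested, none passed in either direction by edgeR or DESeq2, and 0 had an unadjusted p under 0.05. Ms4a14 was steady at 92.2 to 112 CPM across the libraries (log2 fold change 0.04). Tmem176a and Tmem176b, related genes on chromosome 6 with high levels in myeloid cells, had log2 fold changes of -0.17 and -0.13 with overlapping groups. Ms4a3, a gene of granulocyte and monocyte progenitors, was at 1.69 to 3.15 CPM. Ms4a2 had 33, 41 and 45 counts in KO and 15, 13 and 70 in WT, the highest again in MSR1 WT 3. Ms4a8a had 35, 20 and 0 counts in KO and 10, 16 and 9 in WT, a spread too wide for any reading (fold 95% interval 0.333 to 9.82).

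**Figure D3:**
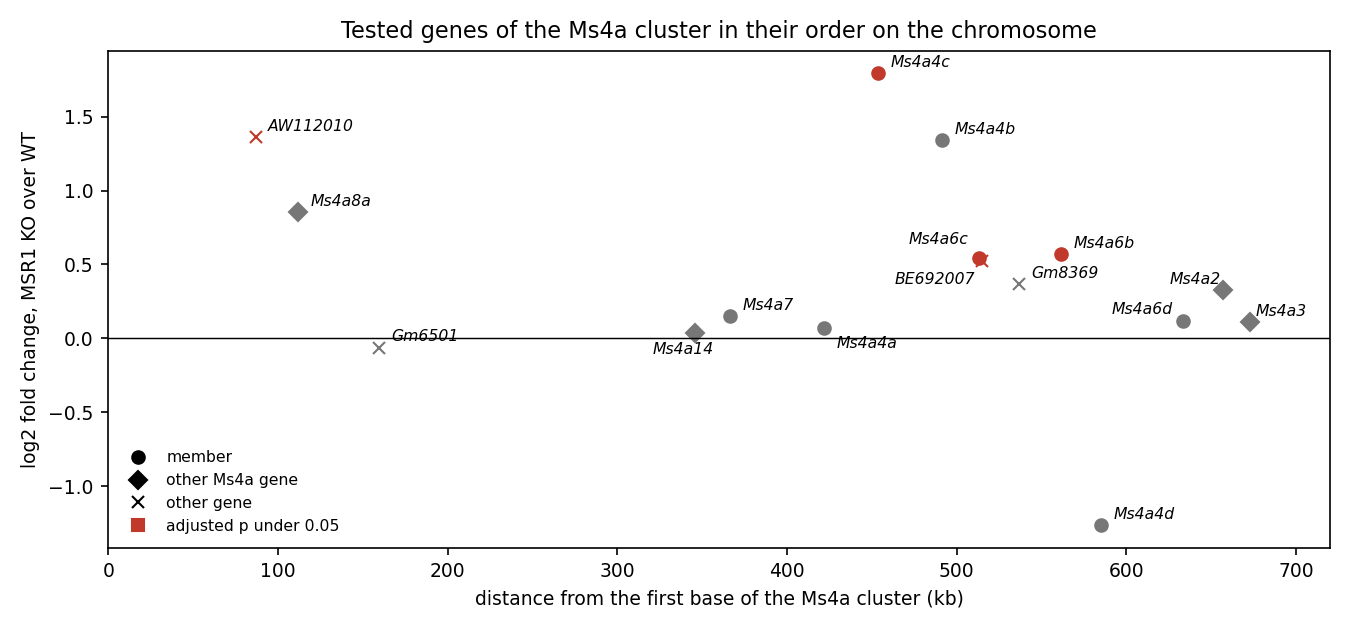
Log2 fold change of each tested gene in the Ms4a cluster against its distance from the first base of the cluster in kb; circles are members, diamonds other Ms4a genes and crosses other genes, with red for an adjusted p under 0.05. The higher members Ms4a4c, Ms4a4b, Ms4a6c and Ms4a6b are consecutive, between Ms4a4a and Ms4a4d.

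The 4 members with higher KO values are neighbours in the cluster, between Ms4a4a on one side and Ms4a4d on the other. Of the 4 tested genes in the span that are not Ms4a genes, 2 rose, BE692007 and AW112010, an interferon-inducible transcript at 53.8, 65.3 and 33.5 CPM in KO and 22.9, 13.8 and 22.6 CPM in WT (log2 fold change 1.36, adjusted p = 0.0304 by edgeR). Within 1000000 bases on either side, 36 genes were tested, of which 3 were higher and 2 lower, with a median log2 fold change of 0.07. The higher ones were Slc15a3, a lysosomal peptide transporter (log2 fold change 0.66), A330040F15Rik (1.64) and AC151730.1 (1.44). The lower ones were Myrf, a transcription factor known from myelination (-2.62), and Dagla, a lipase that makes an endocannabinoid (-0.68).

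The profile of Ms4a4c over the libraries was compared with that of every other gene. Its log2 CPM minus the mean over the libraries was closest to that of Slfn1, a Schlafen gene, at a root mean square distance of 0.114 over 6 libraries among 13610 genes compared. Cfb, complement factor B (0.159), and Ifi44, an interferon-induced gene (0.177), came next. Slfn1 was at 104, 101 and 105 CPM in KO and at 25.3, 20.7 and 51.0 CPM in WT. The likeness is a description over 6 libraries that share depth and culture. Of the 25 interferon-response genes 22 were higher and none lower by edgeR (25 and 0 at an unadjusted p under 0.05, 24 and 0 by DESeq2), with a median log2 fold change of 1.08. With one library left out, 2 to 25 of them were called, fewest without MSR1 KO 1 or MSR1 WT 1 and most without MSR1 WT 3.

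**Figure D4:**
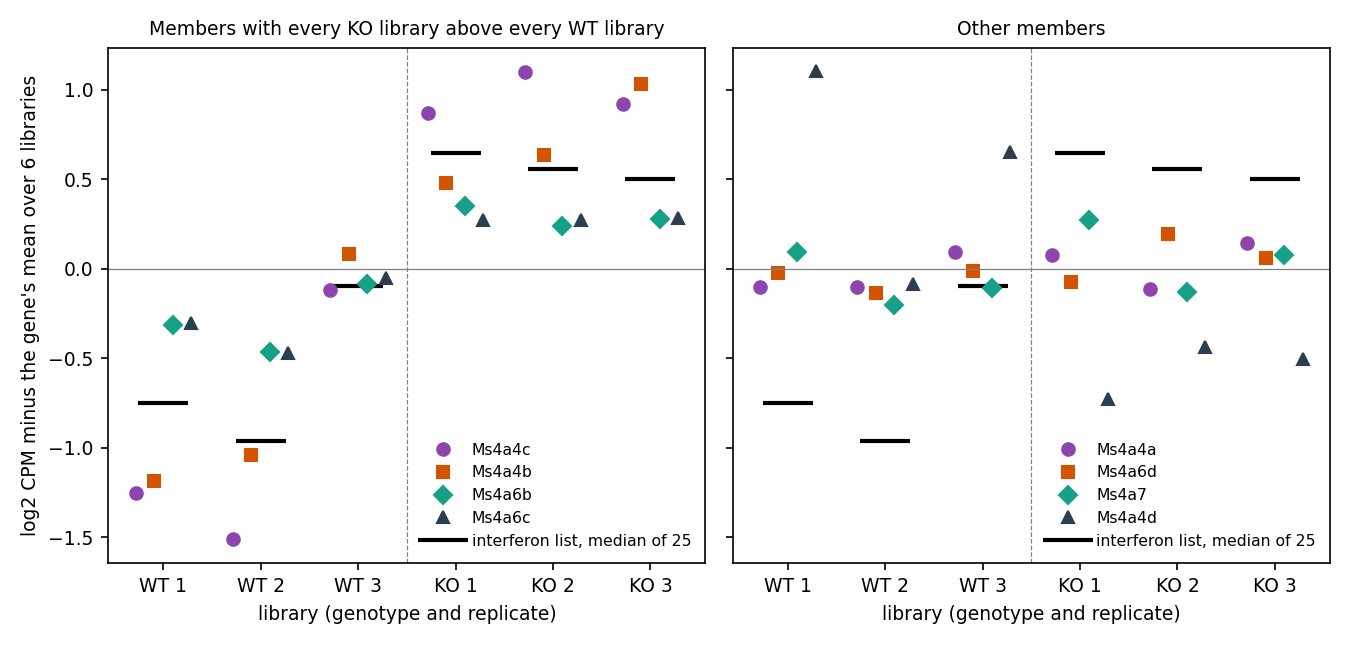
Log2 CPM of each member minus its mean over 6 libraries, with the median of the same value over 25 interferon-response genes as a black bar, by library; the left panel holds the members with KO above WT and the right panel the others. In the left panel points and bars are lowest in MSR1 WT 1 and WT 2, intermediate in MSR1 WT 3 and highest in the 3 KO libraries, and in the right panel Ms4a4a, Ms4a6d and Ms4a7 stay within 0.3 of 0.

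The median of these deviations over the interferon list was 0.64, 0.56 and 0.50 in MSR1 KO 1, 2 and 3, and it was -0.75, -0.96 and -0.10 in MSR1 WT 1, 2 and 3. Ms4a4c had 0.87, 1.10 and 0.92 in KO and -1.25, -1.51 and -0.12 in WT. WT 2 was lowest and WT 3 highest among WT libraries in both. Within KO, where the spread was small, the order was not the same.

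Of 23 tested receptors and signalling genes that Ms4a proteins are known to work with, 3 rose and 1 fell by edgeR (8 and 1 at an unadjusted p under 0.05, 5 and 1 by DESeq2), with a median log2 fold change of 0.13. With one library left out, 0 to 3 were higher. Fcgr4, an activating receptor for IgG, was at 394, 573 and 313 CPM in KO and at 132, 126 and 189 CPM in WT (log2 fold change 1.52, SE 0.235, adjusted p = 0.0183). Fcgr1, the high-affinity IgG receptor, was at 510.5 to 607 CPM in KO and 196 to 331 CPM in WT (1.14, adjusted p = 0.0182). Both are known to be inducible by interferon. Kit, the stem cell factor receptor whose trafficking MS4A4 is known to affect in human mast cells, was at 19.5 to 21.8 CPM in KO and 6.91 to 13.7 CPM in WT (1.04, adjusted p = 0.0393). Cd63, a tetraspanin of endosomes, fell from 407 ± 14.5 CPM in WT to 311 ± 31.4 CPM in KO (-0.39, adjusted p = 0.04). Fcer1g, the signalling chain shared by these Fc receptors, had a log2 fold change of 0.27 and an adjusted p of 0.0502 with no overlap between groups. Clec7a (Dectin-1), Syk, Trem2 and Tyrobp, picked here for their known place in the same pathways, had log2 fold changes of -0.10, -0.07, 0.07 and 0.06 with overlapping groups (edgeR adjusted p 0.639 to 0.793).

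Markers of the states and cell types in which Ms4a genes are expressed were counted in the same fit. Of 12 monocyte genes 4 were higher and none lower (4 and 3 at an unadjusted p under 0.05, 4 and 3 by DESeq2), Plac8, Ly6a and Ly6c2 among the higher ones. Ly6c2, the marker of inflammatory monocytes, was at 24.7, 34.4 and 29.7 CPM in KO and at 9.94, 8.35 and 15.4 CPM in WT, with MSR1 WT 3 the highest WT library as for Ms4a4c. The summed monocyte list was at 1319 to 1686 CPM in KO and 1442 to 1533 CPM in WT. Of 18 macrophage identity genes 2 were higher (Fcgr1 and Aif1) and 1 lower (Msr1) by edgeR, against 8 and 2 at an unadjusted p under 0.05 and 5 and 1 by DESeq2. Of 17 alternative activation genes 2 were higher and 3 lower (4 and 5 at an unadjusted p under 0.05), with a median log2 fold change of 0.09. The higher ones were Tgm2 (0.68) and Il4ra (0.35), and the lower ones were F13a1 (-1.29), Stab1 (-0.56) and Mrc1 (-0.39). The list of 6 tested mast cell and basophil genes had 1 higher (Kit), and its sum was 38.1 to 39.9 CPM in KO and 18.4 to 29.3 CPM in WT, with the proteases Mcpt4, Tpsb2 and Tpsab1 at 0 in all libraries. Of 5 B cell genes 1 was lower (Ebf1), against 1 higher and 1 lower at an unadjusted p under 0.05. The summed B cell list was at 267 to 314 CPM in KO and 188 to 237 CPM in WT. Of 9 dendritic cell genes 1 was higher (Dpp4) and 1 lower (Itgax), against 3 and 1 at an unadjusted p under 0.05. Their list summed to 30.5 to 38.3 CPM in KO and 82.2 to 153 CPM in WT. Itgax alone made up 77.4 to 144 CPM in WT. Of 12 stromal genes 2 were lower (2 higher and 6 lower at an unadjusted p under 0.05, 2 and 5 by DESeq2). Of 11 neutrophil genes none passed by edgeR (3 higher at an unadjusted p under 0.05, 2 by DESeq2). The part of these cells in the Ms4a values was not tested.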

How the data were processed

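The series holds 6 RNA-seq libraries of macrophages, 3 for each genotype. The authors deposited raw counts for each gene. The deposited table gives in addition a normalized signal (counts over the library's size factor) and the authors' log2 fold change, p-value and adjusted p-value, none of which were used. Its length column is the span from gene start to end. The paper's methods name TopHat, whereas the submitters' processing notes name fastp 0.17.1, HISAT2 2.1.0, DESeq2 1.18.1 and R 3.4.3. Program and strand setting of the counting, and the build, are not given in the sources used here. Of 52403 gene identifiers also in GENCODE M21 (GRCm38), 49909 matched it in start and end, and positions are therefore on GRCm38. Ms4a4b ends further downstream in M21.

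Members were found by symbol. Counts were filtered with filterByExpr, scaled by TMM, and all 6 libraries entered the quasi-likelihood test of edgeR 4.0.16 (R 4.3.3), with Benjamini-Hochberg adjustment over 16402 genes. CPM are counts over the TMM-scaled library size times 1000000. The SE is log2 fold change divided by the root of F. Log2 CPM used a prior count of 2, and likeness of profiles was compared among genes with a mean of at least 1 CPM. Levels per length used the union of M21 exons. Coding sequences were aligned as nucleotides from M21 transcripts with Biopython 1.88, in place of RefSeq proteins. On simulated counts, 142 of 200 genes changed 2-fold were recovered with 4 other calls among 16031 genes. Replicate libraries of a genotype differed by more than sampling noise (chi-square per degree of freedom 25.7 to 50.8). Total counts were 36143518 to 47417448, and p-values measure the spread between these libraries.

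Named were all 8 members, other Ms4a and Tmem176 genes with a count, Msr1, up to 5 called genes and the 3 most abundant of each list, called chromosome 19 neighbours and the 3 profiles nearest to Ms4a4c. Exceptions are marked, and some genes of the lists are not reported here. The members and lists were chosen with earlier results of these data known. Alternatives were DESeq2 1.42.0, 2 other scalings, 2 other filters, the replicate number as a block, and each library left out.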

Additional observations from a re-analysis of the deposited data

How the results depend on the processing

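Direction held for all 8 members under each alternative, and the calls of Ms4a4c, Ms4a6b and Ms4a6c held with DESeq2, both other scalings and both other filters. DESeq2 called 720 genes higher and 848 lower over the table, and no filter left 237 and 288. Replicate numbers did not pair the libraries, since deviations of same-numbered libraries correlated at -0.026, 0.019 and -0.005 across genes. With the replicate block 59 genes were higher and 78 lower, 1 member was called higher, and 0 met the study's definition in the lower direction. Under the replicate block the log2 fold changes of Ms4a4c, Ms4a6b and Ms4a6c were 1.92, 0.58 and 0.55 (edgeR adjusted p 0.0537, 0.0555 and 0.0627), and that of Ms4a4b was 1.43 (0.0499). With DESeq2 Ms4a4b was at 1.35 (adjusted p = 0.000717).

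With one library left out, 18 (without MSR1 WT 1) to 407 (without MSR1 WT 3) genes were higher and 53 to 372 lower over the table, 0 to 4 members were called higher, 2 to 4 met the study's definition as higher and 0 to 1 as lower. The log2 fold changes spanned 1.54 to 2.34 for Ms4a4c, 1.12 to 1.86 for Ms4a4b, 0.48 to 0.68 for Ms4a6b and 0.45 to 0.66 for Ms4a6c. Fewer libraries leave fewer degrees of freedom. Without MSR1 KO 1 the small differences of Ms4a3 (-0.19), Ms4a8a (-0.10) and Ms4a14 (-0.031) changed sign, as did that of Ms4a3 without MSR1 WT 3 (-0.019) and that of Ms4a2 without MSR1 WT 1 (-0.0084) or WT 2 (-0.0825). Left-out values ran up to 1.60 for Ms4a2, 0.27 for Ms4a3, 1.46 for Ms4a8a and 0.10 for Ms4a14. Ms4a4d, Ms4a8a and Ms4a2 had under 100 counts per library, and the part of depth in their spread was not tested.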
